A study of Homo sapiens with 14 samples.

Results

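The enzymes that write, copy and remove DNA methylation were followed in the human neuroblastoma line SK-N-BE2, whose MYCN gene is amplified. The set holds 9 of the 19923 genes in the count tables, chosen by name: the dioxygenases TET1, TET2 and TET3, the methyltransferases DNMT1, DNMT3A and DNMT3B, the DNMT1 partner UHRF1, and the glycosylases TDG and MBD4. Polyadenylated RNA was sequenced from 14 libraries, 2 for each of 7 groups. In batch 1 the cells carried the genotype label WT and received water (H2O), 10 µM CoCl2 or 50 µM CoCl2. In batch 2 no treatment was labelled, and the groups were WT and cells labelled TET2KO 1, 2 and 3, called labelled knockouts 1, 2 and 3 here. The labels give neither the length of the cobalt exposure, nor how the knockouts were made, nor whether a knockout number is 1 clone or a pool, nor whether replicates were separate cultures. All p-values therefore measure the spread between these libraries, which may be technical. Cobalt groups were compared with H2O and labelled knockouts with WT, each within its batch, to ask how the set's mRNA stood under cobalt and under a TET2 knockout label.

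DNA methyltransferases place a methyl group on cytosine, mostly where a guanine follows. DNMT3A and DNMT3B do so on unmethylated DNA, while DNMT1 is brought by UHRF1 to newly replicated DNA, where only the old strand carries the mark, and copies it. The TET enzymes oxidise 5-methylcytosine to 5-hydroxymethylcytosine and beyond, using oxygen, 2-oxoglutarate and iron held in the active site. TDG cuts out the most oxidised forms and MBD4 removes thymine or uracil mispaired with guanine at methylated sites, after which base excision repair restores cytosine. Cobalt ions can take the place of iron in such dioxygenases, and cobalt chloride is widely used to stabilise hypoxia-inducible factors (HIF).

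All 9 genes matched RefSeq's table of promoters, with 20 windows of 300 bases (250 before to 50 after an annotated start, GRCh38.p14). The windows held 3 to 46 CpG dinucleotides, with a median of 27, against a median of 14 over all 34943 windows of the table. They were searched on both strands for the core of HIF response elements, written ACGTG or GCGTG. It was present in 12 of 20 windows of the set (60%) and in 48.4% of all windows. The E-box CACGTG, bound by the MYC family, was present in 5 of 20 (25%) and in 7.23% of all windows, and each E-box also holds the HIF core once on either strand. The metal response core TGCGCNC was present in 7 of the set's windows (35%) and in 19.9% of all windows. Also searched were the E2F site (2 of 20, 10%, against 1.14% of all windows) and the CCAAT box (8 of 20, 40%, against 34.6%). The NRF1 site was present in 0 of 20, against 1.23% of all windows. Each of these motifs except the CCAAT box holds a CpG, of which the set's windows had more. Shares at like CpG content were not compared. Windows of 1 gene overlap in part, and 2 of the 5 with an E-box are overlapping windows of DNMT3A. A match of letters is a description, not a binding site. Below are the most upstream windows of 4 genes whose difference at 50 µM CoCl2 kept its call under all 13 alternative settings, picked after the matches were known to show a window with and a window without the core in either direction: TET1 (chr10:68560087-68560386, plus strand) and TET3 (chr2:73984660-73984959, plus strand), which were higher, and DNMT3A (chr2:25342541-25342840, minus strand) and TDG (chr12:103965622-103965921, plus strand), which were lower. Capitals mark the HIF core on either strand and E-boxes.
TET1: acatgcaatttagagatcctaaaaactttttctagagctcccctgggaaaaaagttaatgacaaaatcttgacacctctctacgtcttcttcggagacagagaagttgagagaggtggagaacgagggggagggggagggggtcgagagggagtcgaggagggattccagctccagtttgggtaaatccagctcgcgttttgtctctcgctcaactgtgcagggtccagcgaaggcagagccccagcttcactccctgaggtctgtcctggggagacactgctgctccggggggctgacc
TET3: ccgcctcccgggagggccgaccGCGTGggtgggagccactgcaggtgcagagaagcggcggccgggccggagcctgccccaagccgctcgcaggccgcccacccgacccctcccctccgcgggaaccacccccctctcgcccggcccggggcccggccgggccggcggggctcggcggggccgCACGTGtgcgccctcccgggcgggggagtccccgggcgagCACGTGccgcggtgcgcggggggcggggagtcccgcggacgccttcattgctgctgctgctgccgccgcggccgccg
DNMT3A: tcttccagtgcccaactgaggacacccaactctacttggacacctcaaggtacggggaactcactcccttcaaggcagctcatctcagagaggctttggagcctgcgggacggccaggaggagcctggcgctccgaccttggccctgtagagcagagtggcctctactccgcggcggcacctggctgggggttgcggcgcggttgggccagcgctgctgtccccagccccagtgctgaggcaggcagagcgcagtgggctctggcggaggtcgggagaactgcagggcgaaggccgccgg
TDG: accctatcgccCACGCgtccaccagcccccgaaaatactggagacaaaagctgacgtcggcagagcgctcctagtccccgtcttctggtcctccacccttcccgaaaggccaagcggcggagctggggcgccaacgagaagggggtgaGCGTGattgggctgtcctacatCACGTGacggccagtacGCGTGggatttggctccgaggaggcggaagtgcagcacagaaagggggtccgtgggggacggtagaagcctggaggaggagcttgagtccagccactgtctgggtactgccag
The TET3 window held 5 matches to the HIF core, 4 of them within its 2 E-boxes, and the TDG window held 5, with 1 E-box. The TET1 and DNMT3A windows held 0 of either, while 1 of the 2 other windows of TET1 and 2 of the 5 other windows of DNMT3A, which overlap each other, held the core. The other window of TET3 held none. The choice of windows fixed this contrast, so nothing about the direction of a difference can be read from it.

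The libraries of batch 1 held 31214128 to 39540111 counts and those of batch 2 held 52095024 to 59263320, but a batch 2 count was mostly 1 read rather than 1 pair. Each of the 9 genes had at least 373 counts in every library (DNMT3B had the fewest), and all 9 passed the filter on low counts in both batches. All 10 sympathetic neuroblastoma markers were detected in every group, with a summed level of 8054 to 9413 CPM (counts scaled to the library total) in batch 1 and 5786 to 7783 CPM in batch 2. Blood markers summed to at most 1.35 CPM in any library. The 5 endothelial markers summed to 11.3 to 12.0 CPM in WT and to 1.45 to 4.63 CPM in the labelled knockouts, and to 1.61 to 1.89 CPM in H2O and 0.840 to 0.864 CPM at 50 µM. The 5 epithelial markers summed to 10.7 to 11.8 CPM in WT and 7.04 to 8.48 CPM in the labelled knockouts, and to 9.43 to 10.0 CPM in H2O and 5.38 to 5.65 CPM at 50 µM. The 10 fibroblast and mesenchymal markers summed to 1703 to 1717 CPM in WT and 1211 to 1439 CPM in the labelled knockouts, and to 1534 to 1541 CPM in H2O and 1974 to 1989 CPM at 50 µM. These sums joined genes that went opposite ways (examples chosen after their values were seen): the mean of VIM was 1137 CPM in H2O and 1521 CPM at 50 µM and that of PDGFRB 39.3 and 14.9 CPM, while FN1 averaged 316 CPM in WT and 54.5 to 134 CPM in the labelled knockouts, COL3A1 155 and 12.9 to 27.5 CPM, and DCN 21.5 and 36.8 to 47.8 CPM. The epithelial sums of batch 2 joined such genes too (also chosen after their values were seen). KRT19 averaged 7.72 CPM in WT and 3.64 to 5.61 CPM in the labelled knockouts, while EPCAM averaged 1.08 and 1.21 to 1.52 CPM. In batch 1 KRT19 averaged 7.01 CPM in H2O and 3.02 CPM at 50 µM. All 5 endothelial markers averaged under 1 CPM in H2O and at 50 µM. Whether these markers have a part in the differences given here was not tested. MT2A, a metallothionein gene induced by metals, was 0.62 higher on the log2 scale at 10 µM CoCl2 (adjusted p 8.13e-06) and 3.33 higher at 50 µM (adjusted p 3.8e-91), by edgeR's quasi-likelihood test. That test, with Benjamini-Hochberg adjustment over all genes of a batch and called at an adjusted p under 0.05, gives every adjusted p-value below, and an SE is the standard error of a log2 fold change.

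Levels can be compared between genes only per length, here as CPM per kb of annotated exon, all isoforms joined. In H2O the order was DNMT1 (29.1 CPM per kb), DNMT3A (17.6), TDG (13.5), UHRF1 (12.0), MBD4 (11.6), TET3 (9.20), TET1 (9.15), TET2 (4.81) and DNMT3B (2.85). No 2 neighbours in that order overlapped in their libraries, although TET3 at 9.19 and 9.21 CPM per kb and TET1 at 9.13 and 9.16 CPM per kb nearly did. DNMT1, the copying enzyme, was thus the most abundant message per length in the set and DNMT3B the least. In WT the order was DNMT1 (42.1), UHRF1 (37.9), TDG (30.4), DNMT3A (18.6), MBD4 (11.6), TET3 (10.9), TET1 (4.42), TET2 (4.12) and DNMT3B (3.29 CPM per kb), with TET1 and TET2 overlapping. UHRF1 and TDG stood above DNMT3A in WT and below it in H2O. Set side by side, the WT mean over the H2O mean was 3.15 for UHRF1, 2.25 for TDG, 1.45 for DNMT1 and 1.00 for MBD4, while H2O stood above WT by 2.07 times for TET1. The summed level of 20 S-phase and mitosis genes was 5577 to 5601 CPM in WT and 4242 to 4253 CPM in H2O. These 2 controls lie in different batches whose reads were counted differently, so batch, culture and counting cannot be told apart and no test was made. Copies that resemble parts of the set are annotated as the processed pseudogenes TDGP1 on chromosome 12 and TET1P1 on chromosome 13 (GENCODE 29), and how many reads of TDG and TET1 they took up or gave is not known.

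**Figure D1:**
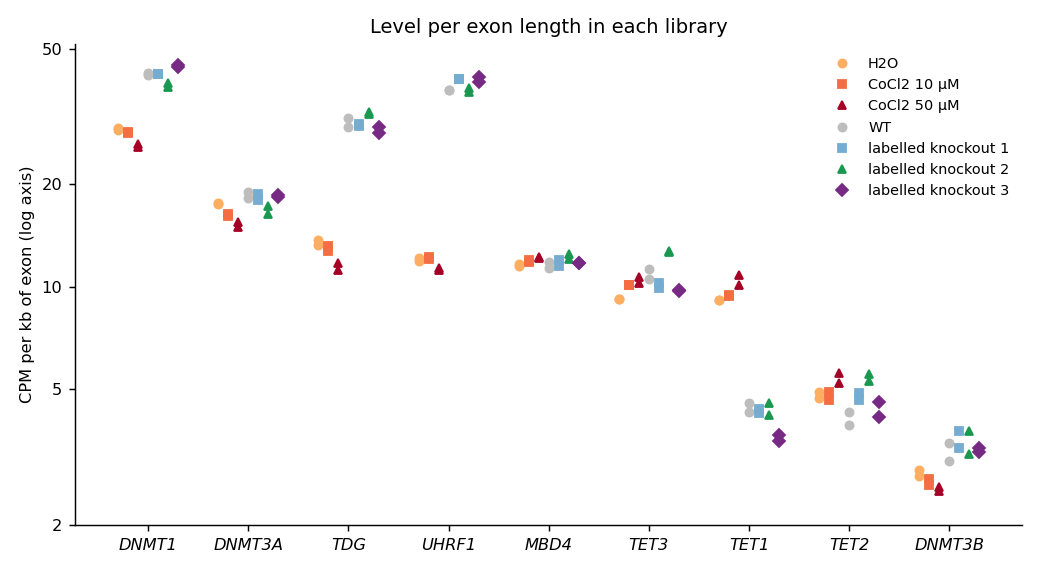
Level of each of the 9 genes in all 14 libraries, in CPM per kb of annotated exon on a log axis, 1 point per library, genes ordered by their mean in H2O. DNMT1 leads in every group and DNMT3B is lowest, and UHRF1, TDG and TET1 stand at different levels in batch 1 (H2O and CoCl2) and batch 2 (WT and labelled knockouts).

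At 50 µM CoCl2 all 3 TET genes rose, by 12.2% to 14.1%, while DNMT1, DNMT3A, DNMT3B, UHRF1 and TDG fell. The smallest of these falls was that of UHRF1, which fell by 5.92%, and the largest that of TDG, which fell by 14.8%. MBD4 was not called. These 8 of 9 genes compare with 61.4% of all 13636 genes tested (30.4% higher and 31.1% lower), so a call by itself was common at this dose. The sizes were ordinary too: ranked by absolute log2 fold change among all genes tested, the 9 genes lay between percentiles 23.1 (MBD4) and 61.3 (TDG). The median log2 fold change of the set was -0.09, against 0.00 for all genes. At 10 µM CoCl2, 2 of 9 genes were called, TET3 higher and DNMT3A lower, against 22.7% of all genes (11.6% higher and 11.1% lower). Between the doses, 6 of 9 were called at 50 µM against 10 µM, with TET1 and TET2 higher and DNMT1, DNMT3A, UHRF1 and TDG lower, against 52.8% of all genes (26.2% higher and 26.5% lower). The comparisons of the doses with H2O share the H2O libraries.

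TET1 (chromosome 10, 68560337 to 68694487, plus strand, GRCh38), a TET enzyme with a DNA-binding CXXC domain, measured 88.0 and 87.8 CPM in H2O, 90.8 and 90.0 CPM at 10 µM and 104 and 97.0 CPM at 50 µM. Both 50 µM libraries lay above the other 4 (log2 fold change against H2O 0.19, SE 0.029, adjusted p 4.38e-09). TET2 (chromosome 4, 105145875 to 105279816, plus strand), which lacks a CXXC domain of its own, measured 77.6 and 81.0 CPM in H2O, 76.8 and 80.9 CPM at 10 µM and 92.0 and 86.3 CPM at 50 µM. Its H2O and 10 µM libraries overlapped (-0.01, 95% interval -0.07 to 0.05), and both 50 µM libraries lay above them (0.17, SE 0.031, adjusted p 1e-06). TET3 (chromosome 2, 73986404 to 74108176, plus strand) measured 113 and 113 CPM in H2O, 124 and 124 CPM at 10 µM and 131 and 126 CPM at 50 µM. It was the 1 TET gene already called at 10 µM (0.14, SE 0.026, adjusted p 1.02e-05), and the added 0.05 from 10 to 50 µM was not called (adjusted p 0.109), except without the second 50 µM library (0.08, adjusted p 0.037).

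The methyltransferases moved the other way. DNMT1 (chromosome 19, 10133345 to 10231286, minus strand) measured 288 and 283 CPM in H2O, 280 and 277 CPM at 10 µM and 252 and 257 CPM at 50 µM. The 50 µM libraries were the lowest of the 6 (-0.17, SE 0.020, adjusted p 2.26e-13), and the difference at 10 µM was not called (-0.03, adjusted p 0.214). DNMT3A (chromosome 2, 25227855 to 25342590, minus strand) measured 212 and 211 CPM in H2O, 196 and 194 CPM at 10 µM and 186 and 180 CPM at 50 µM. Each step separated the libraries and was called, by -0.11 from H2O to 10 µM (SE 0.022, adjusted p 1.08e-05) and by -0.10 from 10 to 50 µM (SE 0.023, adjusted p 1.05e-04), for -0.21 in all (SE 0.022, adjusted p 2.08e-16). DNMT3B (chromosome 20, 32762385 to 32809356, plus strand), the partner of DNMT3A in writing new methylation, was low throughout, at 13.4 and 12.9 CPM in H2O, 12.7 and 12.1 CPM at 10 µM and 11.9 and 11.6 CPM at 50 µM. Its fall at 50 µM only just passed (-0.16, SE 0.072, adjusted p 0.0423) and lost its call in 5 of 13 alternatives, among them each fit without a 50 µM library (adjusted p 0.0715 and 0.189) and that without the first H2O library (0.18).

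UHRF1 (chromosome 19, 4903080 to 4962154, plus strand), which leads DNMT1 to half-methylated sites, measured 62.5 and 61.2 CPM in H2O, 62.8 and 62.2 CPM at 10 µM and 58.6 and 57.9 CPM at 50 µM. It overlapped H2O at 10 µM (0.01, adjusted p 0.803) and was lower at 50 µM (-0.09, SE 0.035, adjusted p 0.0216). This call was lost in 4 of 13 alternatives, including those without the first H2O library (adjusted p 0.129) and without the second 50 µM library (0.119), and against 10 µM (-0.10, adjusted p 0.00899) it was lost without the first 10 µM library (0.0595) or the second 50 µM library (0.0672). The summed level of the 20 S-phase and mitosis genes was 4242 to 4253 CPM in H2O, 4185 to 4196 CPM at 10 µM and 4337 to 4349 CPM at 50 µM, a sum over genes of which 11 were higher and 7 lower at 50 µM. Its part in the UHRF1 and DNMT1 differences was not tested.

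Of the glycosylases, TDG (chromosome 12, 103965822 to 103988874, plus strand) showed the largest fall of the set. It measured 64.9 and 66.9 CPM in H2O, 62.3 and 64.3 CPM at 10 µM and 54.8 and 57.3 CPM at 50 µM. Both 50 µM libraries lay below the other 4 (-0.23, SE 0.035, adjusted p 1.98e-09), while the difference at 10 µM was not called (-0.06, adjusted p 0.225). MBD4 (chromosome 3, 129430944 to 129440179, minus strand) measured 38.5 and 39.3 CPM in H2O, 40.2 and 39.7 CPM at 10 µM and 40.7 and 41.0 CPM at 50 µM. The 50 µM libraries lay above the H2O libraries by little (0.07, 95% interval -0.01 to 0.15, adjusted p 0.133). MBD4 shares 4.29% of its exonic length with IFT122 on the opposite strand, and DNMT1 0.847% with S1PR2, which the counting could not separate.

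**Figure D2:**
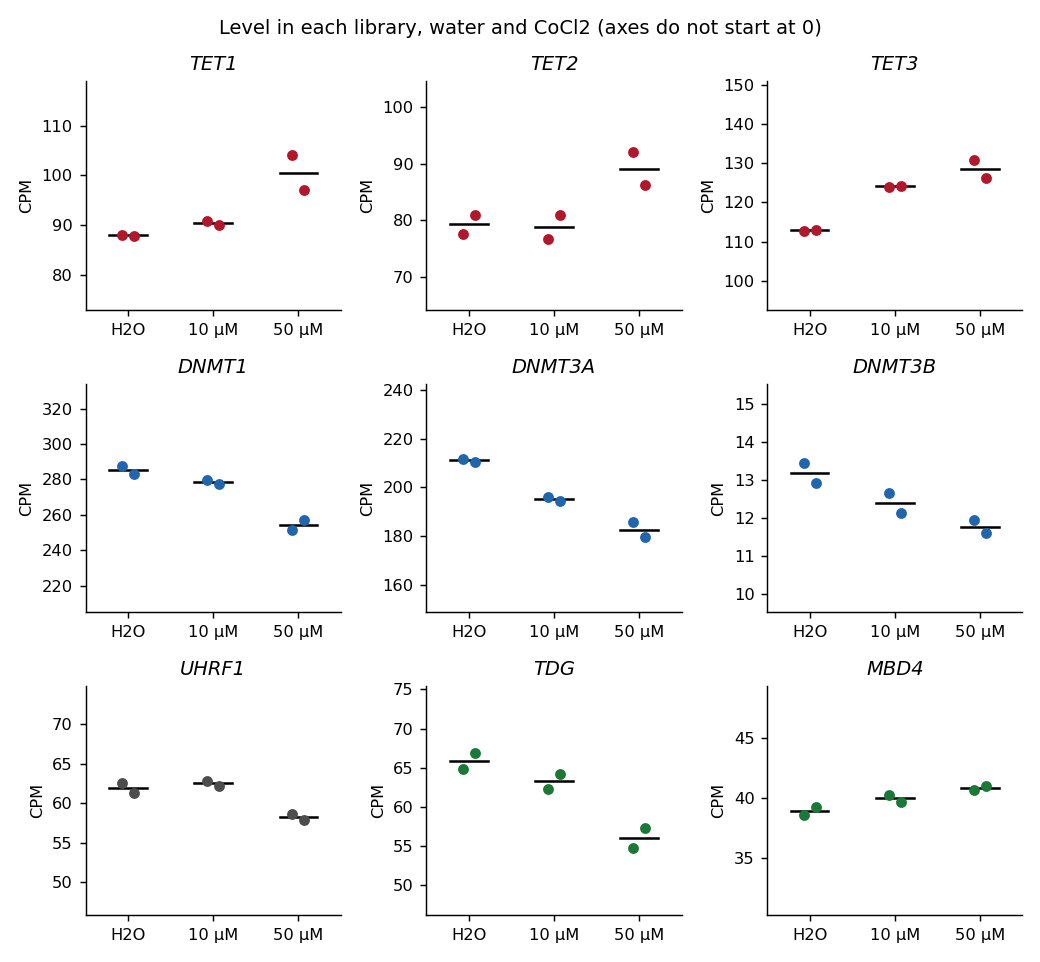
CPM of each gene in the 6 libraries of batch 1, 1 panel per gene, with points for libraries and a bar for the mean of 2; the axes do not start at 0 and each spans a like share of its gene's level. The TET panels rise to 50 µM, the DNMT and TDG panels fall, and MBD4 differs least.

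As a description, the 3 TET levels per kb were summed and divided by the sum of the 3 DNMT levels per kb. This ratio was 0.462 and 0.473 in H2O, 0.508 and 0.518 at 10 µM, and 0.619 and 0.586 at 50 µM, so its libraries kept apart at each dose. It was 0.315 and 0.293 in WT, 0.300 and 0.299 in labelled knockout 1, 0.382 and 0.376 in labelled knockout 2, and 0.265 and 0.270 in labelled knockout 3. Labelled knockout 2 thus stood above WT and labelled knockout 3 below it, with labelled knockout 1 inside the range of WT. No test was made of this ratio, which weighs messages and not enzyme activity.

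In batch 2 the targeted gene was examined first. TET2 measured 70.8 and 64.8 CPM in WT, 80.4 and 76.6 CPM in labelled knockout 1, 87.4 and 91.1 CPM in labelled knockout 2, and 68.2 and 75.4 CPM in labelled knockout 3. Its mRNA was lower than WT in no labelled knockout. It was higher in labelled knockout 1 (0.21, SE 0.051, adjusted p 6.64e-04) and labelled knockout 2 (0.40, SE 0.050, adjusted p 3.86e-12), and labelled knockout 3 overlapped WT (0.08, 95% interval -0.02 to 0.18, adjusted p 0.301). The call in labelled knockout 1 was lost without the second WT library (0.15, adjusted p 0.102). Counts summed over a gene do not show whether its reading frame was cut, so they cannot check the edit, and every direction below is that of libraries labelled knockout.

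Of the 9 genes, 3 were called in labelled knockout 1 (TET2 and UHRF1 higher, TET3 lower), against 17.5% of 14061 genes (7.79% higher and 9.72% lower). In labelled knockout 2, 4 were called (TET2 and TET3 higher, DNMT1 and DNMT3A lower), against 26.3% (12.0% higher and 14.3% lower). In labelled knockout 3, 3 were called (UHRF1 higher, TET1 and TET3 lower), against 18.9% (8.90% higher and 9.96% lower). With so few genes, each of these counts is close to its background, being 1 to 2 genes above it. In the mean of the 3 labelled knockouts only TET2 was called (0.23, SE 0.042, adjusted p 2.5e-06), against 18.9% of all genes, and this call was lost when all 6 knockout libraries shared 1 coefficient (adjusted p 0.337), so that the differences between knockouts entered the spread. The 3 comparisons share the WT libraries.

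The 2 TET genes that were not targeted went different ways in different knockouts. TET3 measured 138 and 130 CPM in WT, 122 and 126 CPM in labelled knockout 1, 156 and 156 CPM in labelled knockout 2, and 120 and 119 CPM in labelled knockout 3. It was higher in labelled knockout 2 (0.22, SE 0.041, adjusted p 3.06e-06) and lower in labelled knockout 3 (-0.16, SE 0.042, adjusted p 0.00166), and its fall in labelled knockout 1 (-0.11, adjusted p 0.0469) lost its call in 9 of 16 alternatives. Without the first WT library neither fall passed (adjusted p 0.494 for labelled knockout 1 and 0.14 for labelled knockout 3). Leaving out either library of labelled knockout 1 (0.268 and 0.0946) or of labelled knockout 2 (0.0647 and 0.063) also ended the call in labelled knockout 1. TET1 measured 43.8 and 41.1 CPM in WT, 41.0 and 42.2 CPM in labelled knockout 1, 40.5 and 43.8 CPM in labelled knockout 2, and 34.0 and 35.4 CPM in labelled knockout 3. Both libraries of labelled knockout 3 lay below the other 6 (-0.29, SE 0.063, adjusted p 1.07e-04), and the other 2 labelled knockouts overlapped WT.

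Among the writers, DNMT1 measured 409 and 416 CPM in WT, 414 and 412 CPM in labelled knockout 1, 377 and 388 CPM in labelled knockout 2, and 434 and 438 CPM in labelled knockout 3. It fell in labelled knockout 2 (-0.11, SE 0.032, adjusted p 0.00571), and labelled knockout 3 lay above WT without passing (0.08, adjusted p 0.0649), though DESeq2 (adjusted p 0.0261) and the fit of all 14 libraries together (adjusted p 0.00859) called it. DNMT3A measured 229 and 219 CPM in WT, 217 and 225 CPM in labelled knockout 1, 197 and 208 CPM in labelled knockout 2, and 221 and 223 CPM in labelled knockout 3. It was lower in labelled knockout 2 alone by the test against WT (-0.14, SE 0.037, adjusted p 9.45e-04). Without the first library of labelled knockout 2, neither fall passed (adjusted p 0.146 for DNMT1 and 0.109 for DNMT3A). DNMT3B measured 14.3 and 16.2 CPM in WT, 15.6 and 17.5, 15.0 and 17.4, and 15.2 and 15.6 CPM in labelled knockouts 1, 2 and 3. All 3 overlapped WT. The 95% intervals of the log2 fold change ran from -0.06 to 0.30, from -0.09 to 0.27 and from -0.17 to 0.20, so changes within these ranges were not excluded.

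UHRF1 measured 195 and 195 CPM in WT, 209 and 209 CPM in labelled knockout 1, 192 and 197 CPM in labelled knockout 2, and 206 and 212 CPM in labelled knockout 3. Labelled knockouts 1 and 3 lay above WT and just passed (0.10, adjusted p 0.0395, and 0.10, adjusted p 0.0445), and each call was lost in 7 of 16 alternatives. For labelled knockout 1 these included every fit without a library of WT (adjusted p 0.131 and 0.13), of labelled knockout 1 (0.125 and 0.147) or of labelled knockout 2 (0.0556 and 0.0548). For labelled knockout 3 they included the fits without a library of WT (0.152 and 0.133), of labelled knockout 2 (0.0623 and 0.0613) and without the second library of labelled knockout 3 (0.219). The mean of the labelled knockouts was not called (0.07, adjusted p 0.115), except with all 14 libraries in 1 fit (0.07, adjusted p 0.0221). Beside this, the summed level of the 20 S-phase and mitosis genes was 5577 to 5601 CPM in WT, 5834 to 5883 CPM in labelled knockout 1, 5851 to 5853 CPM in labelled knockout 2 and 6126 to 6191 CPM in labelled knockout 3. Its part in the UHRF1 difference was not tested.

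TDG measured 144 and 153 CPM in WT, 147 and 145 CPM in labelled knockout 1, 157 and 159 CPM in labelled knockout 2, and 139 and 144 CPM in labelled knockout 3. Labelled knockout 2 lay above WT and labelled knockout 3 below it, neither passing (0.09, adjusted p 0.0881, and -0.08, adjusted p 0.196), though the fit of all 14 libraries together called labelled knockout 2 (0.09, adjusted p 0.0304). MBD4 measured 38.0 and 39.8 CPM in WT and between 38.5 and 41.8 CPM in the 6 libraries of the labelled knockouts. It was called in no comparison of either batch.

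**Figure D3:**
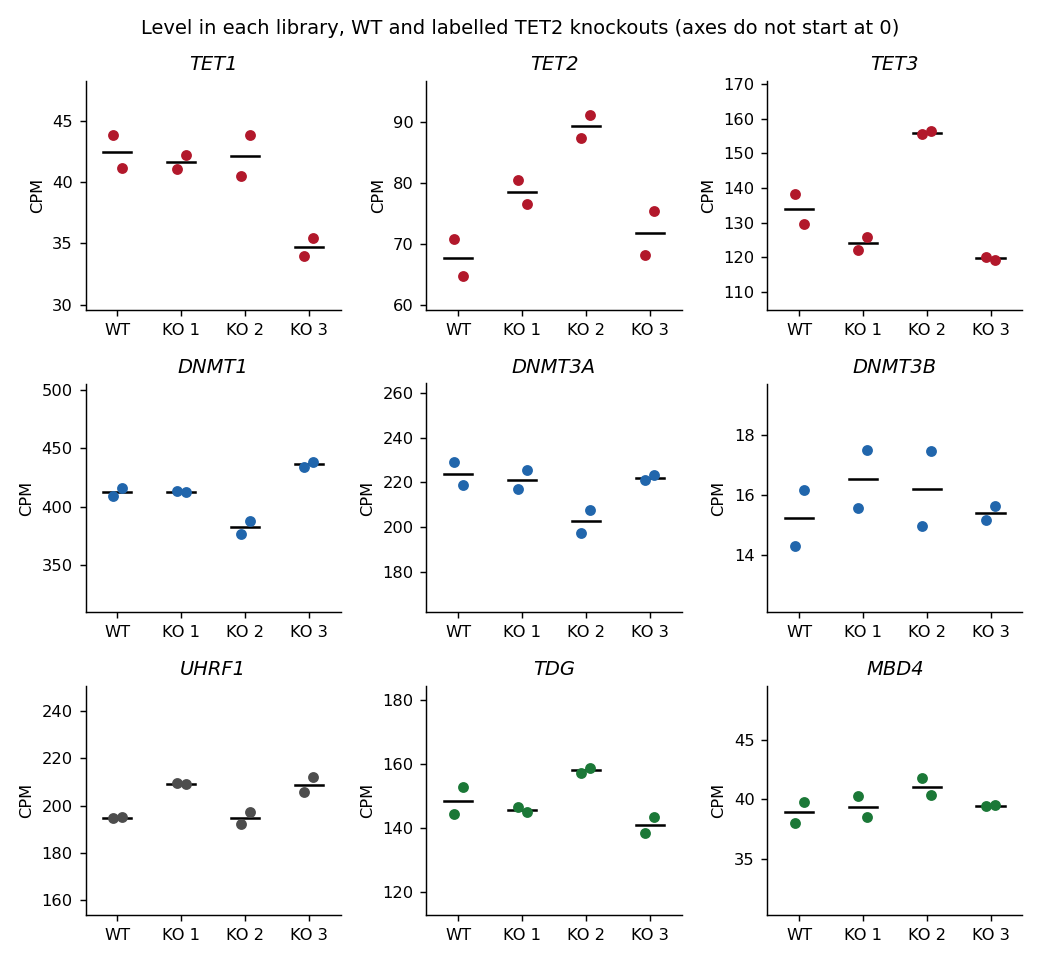
CPM of each gene in the 8 libraries of batch 2, 1 panel per gene, with points for libraries and a bar for the mean of 2; KO 1 to 3 are the labelled knockouts and the axes do not start at 0. TET2 is at or above WT in every labelled knockout, TET3 is highest in labelled knockout 2, and TET1 is lowest in labelled knockout 3.

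The labelled knockouts were then tested against each other, with 1 F-test on 2 degrees of freedom per gene. Of the 9 genes, 7 differed among them, against 37.6% of all genes: TET1, TET2, TET3, DNMT1, DNMT3A, UHRF1 and TDG. The gap between the highest and the lowest labelled knockout, in log2 fold change against WT, was 0.38 for TET3 (adjusted p 1.77e-17), 0.32 for TET2 (6.96e-08), 0.28 for TET1 (6.5e-05), 0.19 for DNMT1 (1.21e-06), 0.16 for TDG (0.00101), 0.13 for DNMT3A (0.00163) and 0.10 for UHRF1 (0.0231). Labelled knockout 2 had the highest TET2, TET3 and TDG and the lowest DNMT1, DNMT3A and UHRF1 of the 3. The median of this spread over all genes was 0.19, so the TET genes lay above it, DNMT1 at it, and DNMT3A, TDG and UHRF1 below it. The call of UHRF1 was lost without either library of labelled knockout 2 (adjusted p 0.328 and 0.0692) and that of DNMT3A without the first of them (0.233).

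**Figure D4:**
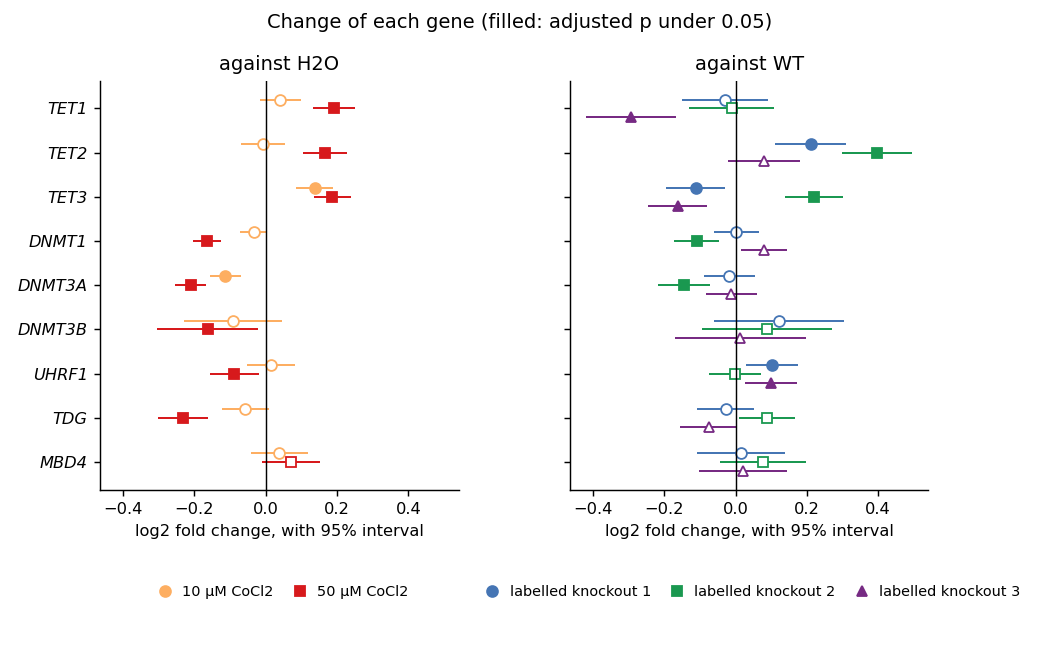
Log2 fold change of each gene with its 95% interval, at left the CoCl2 doses against H2O and at right the labelled knockouts against WT, filled where the adjusted p is under 0.05. At 50 µM the 3 TET genes lie to the right of 0 and the DNMT genes, UHRF1 and TDG to the left, while the labelled knockouts lie on different sides for TET3 and DNMT1.

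Other genes of the pathway were taken from 6 lists and are given by counts and medians, with no test of a list. Among partners and regulators of the DNMT and TET enzymes, 22 of 25 were tested, and 9 were higher and 10 lower at 50 µM CoCl2 (median log2 fold change 0.02). The shares to read these and the following counts at 50 µM against are 30.4% of all genes higher and 31.1% lower. OGT, the O-GlcNAc transferase that binds TET proteins, rose (0.36, adjusted p 6.16e-32), as did TRIM28 (0.31, adjusted p 9.09e-31), a corepressor at silenced repeats. NSD1, which writes the H3K36 dimethyl mark that DNMT3A reads, fell (-0.38, adjusted p 3.68e-33), as did WT1 (-0.64, adjusted p 2.59e-09), a DNA-binding partner of TET2. At 10 µM, 7 partners were higher and 1 lower, beside 11.6% and 11.1% of all genes. Of 13 readers of methylated or unmethylated CpG tested, 9 were higher and 2 lower at 50 µM (median 0.09), with ZBTB4 (0.28, adjusted p 5.38e-07) and MBD1 (0.21, adjusted p 4.32e-05) higher and MBD2 (-0.30, adjusted p 2.15e-06) and MBD3 (-0.18, adjusted p 2.27e-06), subunits of NuRD complexes, lower. MBD3 shares 9.7% of its exonic length with AC005943.1 on the same strand.

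Of 17 base excision repair genes, which act after TDG and MBD4, 4 were higher and 5 lower at 50 µM (median 0.04). The scaffold XRCC1 (0.35, adjusted p 4.79e-16) and the ligase LIG1 (0.25, adjusted p 1.97e-10) rose, and the AP endonuclease APEX1 (-0.28, adjusted p 7.24e-32) and the ligase LIG3 (-0.40, adjusted p 8.74e-31) fell. LIG3 shares 29.1% of its exonic length with RFFL on the opposite strand, and XRCC1 shares 6.48% with L34079.1 on the same strand and 5.96% with PINLYP on the opposite strand. Of 14 methyl donor genes tested, which keep the supply of S-adenosylmethionine, 6 were higher and 4 lower (median 0.07). The folate enzyme MTHFD2 (0.28, adjusted p 2.1e-35) and the S-adenosylmethionine synthetase MAT2A (0.25, adjusted p 4.46e-30) rose, while its regulatory subunit MAT2B (-0.29, adjusted p 1.13e-14) and adenosine kinase ADK (-0.18, adjusted p 1.74e-09) fell. MTHFD2 shares 27.5% of its exonic length with SLC4A5 and MAT2A 12.5% with GGCX, both on the opposite strand.

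Genes of 2-oxoglutarate, succinate, fumarate and 2-hydroxyglutarate metabolism make or use up the TET cosubstrate and its inhibitors. Of 21 tested, 4 were higher and 14 lower at 50 µM (median -0.10), beside 30.4% and 31.1% of all genes. IDH1, the cytosolic enzyme that makes 2-oxoglutarate from isocitrate, measured 97.8 and 101 CPM in H2O, 88.6 and 88.6 CPM at 10 µM and 62.8 and 64.4 CPM at 50 µM. At 50 µM it fell by 35.9% (log2 -0.64, SE 0.031, adjusted p 8.56e-46). It was named for the smallest adjusted p among the list's lower genes, and its fall was the list's largest. GOT2, the mitochondrial aspartate aminotransferase, also fell (-0.37, adjusted p 2.98e-37), while IDH3G (0.34, adjusted p 4.53e-20) and DLST (0.17, adjusted p 5.65e-10), subunits of citric acid cycle dehydrogenases, rose. IDH3G shares 10.2% of its exonic length with SSR4 on the opposite strand. Of 20 S-phase and mitosis genes, 11 were higher and 7 lower (median 0.11): the ribonucleotide reductase subunits RRM2 (0.52, adjusted p 4.17e-68) and RRM1 (0.27, adjusted p 2.42e-27) rose, and MKI67 (-0.42, adjusted p 2.73e-53) and the mitotic cyclin CCNB1 (-0.47, adjusted p 6.03e-45) fell. All named calls of these lists at 50 µM held under the 13 alternatives.

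In the mean of the labelled knockouts the same lists gave 5 higher and 5 lower of 22 partners, 1 higher and 0 lower of 13 readers (0 lower at an unadjusted p under 0.05 too), 2 higher and 1 lower of 17 base excision repair genes, 0 higher and 2 lower of 14 methyl donor genes (2 higher at an unadjusted p under 0.05), 2 higher and 1 lower of 21 cosubstrate genes, and 12 higher and 1 lower of 20 S-phase and mitosis genes. Beside these stand 7.54% of all genes called higher and 11.4% called lower. Among partners TRIM28 (0.14, adjusted p 4.28e-06) and CDCA7L (0.23, adjusted p 6.26e-04) were higher and WT1 (-0.94, adjusted p 2.04e-08) and GADD45A (-0.23, adjusted p 4.26e-04) lower. WT1, the TET2 partner, measured 4.88 and 5.08 CPM in WT, and its means in labelled knockouts 1, 2 and 3 were 1.92, 3.21 and 2.81 CPM. CDCA7L shares 21.4% of its exonic length with DNAH11 on the opposite strand. The reader ZBTB38 was higher (0.11, adjusted p 0.0457), a call lost in 9 of 17 alternatives. LIG1 (0.19, adjusted p 6.62e-05) and XRCC1 (0.14, adjusted p 0.0368) were higher and the glycosylase NEIL1 lower (-0.55, adjusted p 0.0139) at 3.00 CPM in WT, with 26.4% of its exonic length shared with MAN2C1. MAT2A (-0.15, adjusted p 2.81e-07) and MTRR (-0.17, adjusted p 0.0119) were lower. IDH2 (0.12, adjusted p 0.00101) and GOT1 (0.16, adjusted p 0.00264) were higher and PSAT1 lower (-0.10, adjusted p 0.0106). RRM2 (0.18, adjusted p 1.52e-10) and CDC20 (0.22, adjusted p 4.96e-09) were higher and MKI67 lower (-0.08, adjusted p 0.0139), although labelled knockout 3 at a mean of 695 CPM stood above WT at 657 CPM. Some other calls in the mean were not shared by every labelled knockout. Libraries overlapped WT in labelled knockout 2 for CDCA7L, ZBTB38 and GOT1, in labelled knockout 1 for PSAT1 and in labelled knockout 3 for GADD45A. In labelled knockout 2 and WT the means were 32.4 and 31.8 CPM for CDCA7L and 64.6 and 64.9 CPM for ZBTB38. With 1 coefficient for all knockout libraries, RRM2 alone of the genes named for the mean kept its call. Without the first WT library the calls of CDCA7L, ZBTB38, LIG1, XRCC1, NEIL1, MTRR, IDH2, GOT1 and MKI67 were also lost, and without the second those of GADD45A, ZBTB38, XRCC1 and PSAT1. Leaving out 1 or another knockout library ended those of ZBTB38, XRCC1, NEIL1, MTRR and MKI67.

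**Figure D5:**
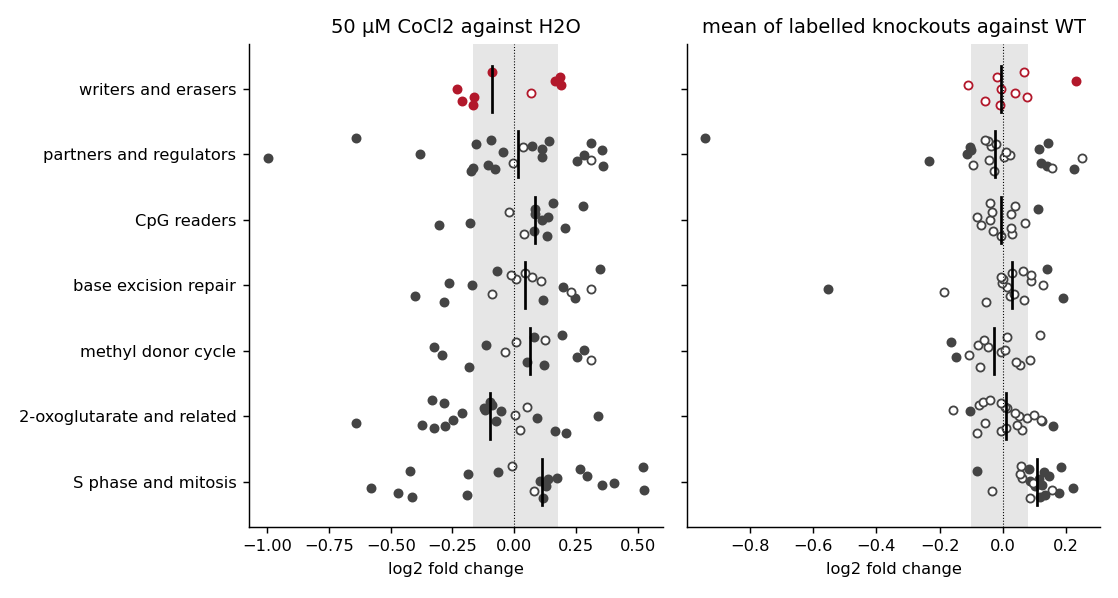
Log2 fold changes of the 9 genes and of the 6 other lists, at 50 µM CoCl2 against H2O (left) and in the mean of the labelled knockouts against WT (right), 1 point per gene, filled where the adjusted p is under 0.05, with a bar at each list's median and grey shading between the quartiles of all genes. At 50 µM the 9 genes lie near or within the shading (-0.166 to 0.177), with TDG at -0.23. In the labelled knockouts TET2 at 0.23 lies well outside it (-0.0996 to 0.0785), and the others lie near or within it. The point furthest left is the partner gene GADD45G at 50 µM (which dropped from a mean of 2.45 CPM to one of 1.22, and was pointed out after its value was seen) and WT1 in the labelled knockouts (-0.94).

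For each of the 9 genes, the gene whose level followed it most closely was sought over the 14 libraries, on log2 CPM centred on the control of each batch, among 9043 genes with a mean of at least 10 CPM. The libraries share controls and treatments, so these Pearson correlations are descriptions of 14 points and not tests. The closest genes were SETDB1 for TET1 (0.946), TTBK1 for TET2 (0.955), ZFHX3 for TET3 (0.987), MPST for DNMT1 (0.989), FAM222A for DNMT3A (0.961), SF3A1 for DNMT3B (0.901), RIMS4 for UHRF1 (0.974), STAG1 for TDG (0.953) and IFNAR1 for MBD4 (0.887). Within the set, the same measure was 0.859 between DNMT1 and DNMT3A and 0.729 between TET1 and TET3, and -0.882 between TET3 and DNMT1. TET2 followed TET1 (0.124) and TET3 (0.359) less closely than those 2 followed each other.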

How the data were processed

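Raw counts, 1 per gene and library, were what the authors deposited. Per the file headers, featureCounts (1.5.3 for batch 1, 2.0.5 for batch 2) summed reads over the exons of GENCODE 33 protein-coding genes on GRCh38, with the paired-end option and no strand option. Per the submitters' processing notes, Trimmomatic 0.36, STAR 2.6.1d and Subread 1.5.3 were used. Counts from 1 to 10 were even in 39.0% to 42.3% of cases in batch 1 and 77.3% to 80.5% in batch 2, where a count mostly stood for a single read of a pair.

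Groups came from the sample labels. Each batch was fitted separately in R 4.3.3 with edgeR 4.0.16 (filterByExpr, TMM normalization, estimateDisp, glmQLFit with robust estimation, glmQLFTest), giving every group its own coefficient. Tested were 13636 genes (batch 1) and 14061 genes (batch 2). Adjusted p-values are Benjamini-Hochberg values over all genes tested. The dispersion was kept at or above 0.0001001, a floor added after earlier results, which raised the batch 1 estimate of 7.66e-05. CPM values are counts scaled by the TMM-adjusted library totals. The scripts were tested on simulated data. The SE values give the precision, which did not follow depth alone. The SE of DNMT1 was 0.020 at 50 µM CoCl2 and 0.032 in labelled knockout 2, where its counts were higher. The dispersion estimate of batch 2 was 4.63e-04.

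The 9 genes, the gene lists, the tests and the alternatives were chosen with earlier results of these data known. Named beside the 9 were the 2 genes of smallest adjusted p in either direction in each list at 50 µM and in the mean of the labelled knockouts, the gene most like each of the 9, and MT2A. Alternatives were DESeq2 1.42.0, RLE scaling, no filter, a replicate block, the older quasi-dispersion, no dispersion floor, leaving out each library, all 14 libraries in 1 fit, batch 2 counts divided by 2, and 1 coefficient for all knockout libraries. Untested for low counts were DNMT3L, DPPA3, LIN28A, ZFP57, BHMT and MAT1A. A gene of the methyl donor list is not reported here.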

Additional observations from a re-analysis of the deposited data

Results flagged for a closer look

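Of 25 genes named in the comparisons with WT, 18 differed among the 3 labelled knockouts by edgeR's quasi-likelihood F-test of the difference itself. These were 7 of the 9 writers and erasers, against 37.6% of all genes, and 11 of 16 other genes. Those 16 were named for a small adjusted p in the mean of the same knockout libraries. The share of all genes is therefore no fair background for them. The value given is the gap between the highest and the lowest labelled knockout in log2 fold change against WT. Among the 9 writers and erasers it was 0.382 for TET3, 0.317 for TET2, 0.282 for TET1, 0.189 for DNMT1, 0.164 for TDG, 0.134 for DNMT3A and 0.103 for UHRF1. Among partners and readers it was 0.724 for WT1, 0.351 for CDCA7L, 0.256 for GADD45A and 0.191 for ZBTB38. Among repair, methyl donor and cosubstrate genes it was 0.167 for LIG1, 0.177 for MAT2A, 0.13 for IDH2, 0.215 for GOT1 and 0.188 for PSAT1. Among S-phase and mitosis genes it was 0.17 for CDC20 and 0.295 for MKI67. Each labelled knockout is 1 pair of libraries, so an effect of the knockout number and a difference between cultures cannot be told apart.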

How the results depend on the processing

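Of 1080 values of the 9 genes under alternatives, 0 changed direction after a call, 1031 stayed on their side of the threshold, 44 lost a call and 5 gained one. Genes called at 10 µM against H2O numbered 3098, with 1121 in DESeq2 and 796 with all 14 libraries in 1 fit. At 50 against 10 µM, 7198 became 4674 in the latter. That fit gave both batches 1 estimate of the spread, while their dispersion estimates when fitted apart were 7.66e-05 and 4.63e-04. In labelled knockouts 1, 2 and 3 it called 3535, 4772 and 3799 genes, against 2462, 3698 and 2653. The mean of the labelled knockouts gave 2656, and 256 (57 higher, 199 lower) with 1 coefficient for all knockout libraries, where 0 of the 9 genes were called, against 2 with all 14 libraries in 1 fit. Leaving out 1 library gave 1860 to 3291 genes at 10 µM (2 of the 9 in each), 7331 to 8370 at 50 µM (6 to 8), 5979 to 7222 between doses (5 to 6), 1375 to 2586, 2406 to 3766 and 1568 to 2615 in labelled knockouts 1, 2 and 3 (1 to 3, 2 to 4 and 1 to 3), 1587 to 2703 in their mean (1 in each) and 3754 to 5363 among them (5 to 7). The lowest counts came without the second 10 µM library, the second 50 µM library, the second library of labelled knockout 1, the first of labelled knockout 2, the first of labelled knockout 3 and the first WT library. Where an arm kept 1 library, it was assumed to vary like the other groups. The cause of these changes was not tested.

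Replicate numbers did not pair the libraries: same-numbered libraries deviated together with correlations of -0.0378 to 0.00142 in batch 1 and -0.0457 to 0.0229 in batch 2. With the replicate block, 1 of the 9 genes was called in labelled knockout 1 instead of 3 and 2 in labelled knockout 3 instead of 3, and the genes called in these comparisons were 2228 and 2458.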
